A study of Mus musculus with 8 samples.

Results

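Receptor tyrosine kinases were examined in the epididymal duct of the mouse embryo as a set of 43 genes out of the 46517 in the count table. The members were taken from the receptor tyrosine kinase family by name, leaving out Ptk7, Ror, Ryk, Musk, Ros1, Met, Erbb3, Igf1r, Csf1r and the endothelial receptors Kdr, Flt1, Tek and Tie1, and all 43 were found by Ensembl identifier. Total RNA of epididymal ducts at E18.5 was sequenced in 8 libraries. Controls, numbered 1, 3, 4 and 6, had the genotype Ptk7 +/flox. The other 4 libraries, numbered 1, 2, 4 and 5, are labelled as conditional knockouts (cKO) and had the genotype Ptk7 Xst87/flox, in which Xst87 is a disrupted allele. Every embryo, control or knockout, also carried T-Cre and the mT/mG membrane reporter. T-Cre is driven by the Brachyury promoter, which is active in early mesoderm and so not in a single cell type of the duct, and the controls carry 1 floxed allele exposed to the same Cre. Nothing in the labels ties a library to its own embryo, litter or pool, and the p-values therefore cover the spread among these samples only, which may be technical.

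Receptor tyrosine kinases are membrane proteins that bind a ligand outside the cell, pair, and phosphorylate each other and their adaptors inside it, which switches on the RAS, PI3K and phospholipase C pathways. In developing ducts they carry signals between epithelium and mesenchyme: FGFR2 in epithelium receives FGFs made by mesenchyme, PDGF receptors mark mesenchyme and vessel walls, and Eph receptors with their ephrin ligands sort cells at boundaries. Ptk7 itself belongs to the wider family but has an inactive kinase domain.

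Ptk7 checked the labels first. It stood at 189.3, 112.5, 313.3 and 168.6 CPM (the usual counts-per-million scale, with library sizes adjusted by TMM factors) in controls 1, 3, 4 and 6. It was at 7.33, 7.59 and 12.5 CPM in those labelled Ptk7 cKO 1, 2 and 4, whereas the library labelled Ptk7 cKO 5 had 194.3 CPM, inside the control range and against its label. Each direction below is for the label, with that library included unless it is left out by name. Total counts ran from 24807970 to 29590547 per library. Control 3 also stood apart: it was the lowest of all 8 libraries for 16 of the 39 receptors that could be tested (26.6% of all tested genes) and the highest for 8 (24.4% of all tested genes). Markers of duct epithelium, mesenchyme, smooth muscle, mesothelium, endothelium and macrophages were read in every library. At an unadjusted p under 0.05, smooth muscle had 1 of 12 markers higher and 7 lower (summed 3636.7 to 4278.4 CPM in the controls and 2916.5 to 3635.6 CPM in the knockout label). Mesothelium had 4 of 9 higher and 0 lower (647.8 to 811.7 and 801.1 to 1024.4 CPM). Red cells had 2 of 7 higher (794.5 to 2268.1 and 1362.4 to 3965.9 CPM). Their highest sum was in the library labelled Ptk7 cKO 5, and their median log2 fold change was 0.77 with it and 0.07 without it. Endothelium and macrophages had none of 11 each in either direction, and testis and adrenal 1 of 5 lower. Over all genes, 3.50% were higher and 4.87% lower at this threshold. After adjustment edgeR called none of these markers. DESeq2 called 3 of mesothelium and 1 of red cells higher (0.346% of all genes), and 1 of smooth muscle lower (0.771%). The part of these cells in the receptor values was not tested.

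The duct expressed most of the family, over a wide range of levels. Levels of different genes were compared per length, as RPKM (the CPM divided by the deposited gene length in kilobases), as means of the 4 controls. At 10 RPKM or more there were 10 receptors, from 1 to 10 RPKM there were 21, from 0.1 to 1 RPKM there were 8, and 4 were under 0.1 RPKM. Pdgfra, the PDGF receptor of mesenchyme, was the highest at 76.8 ± 8.34 RPKM (SD, n = 4), and it supplied 23.7% to 30.8% of the receptors' summed CPM in the controls and 21.9% to 22.8% in the knockout label. Next came Axl (59.8 RPKM), a TAM receptor for the bridging ligand Gas6, and Ephb4 (50.7), the ephrin-B2 receptor known from veins. Pdgfrb of vessel-wall and stromal cells (28.5), the collagen receptor Ddr1 (28.0) and Fgfr1 (24.2) followed, then Erbb2 (18.4), which has no ligand of its own, the collagen receptor Ddr2 (17.6), Fgfr2 (17.3) and Epha3 (15.8).

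Among neighbours in this order the ranges of the 4 controls overlapped in all but 9 of the 42 pairs. The gaps without overlap lay between Pdgfra and Axl, Ephb4 and Pdgfrb, Fgfr1 and Erbb2, and Epha3 and Ephb6, and at the low end between Mst1r, Flt4 and Insrr, around Erbb4, and between Ltk and Alk. From Pdgfrb through Ddr1 to Fgfr1, and from Erbb2 through Ddr2 and Fgfr2 to Epha3, each range overlapped the next. The 4 genes under 0.1 RPKM were Ltk, Alk, Epha10 and Flt3, with 53, 12, 6 and 5 counts in all 8 libraries together, and they were too low to test. Flt3, a receptor of blood progenitors, had at most 2 counts in a library.

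**Figure D1:**
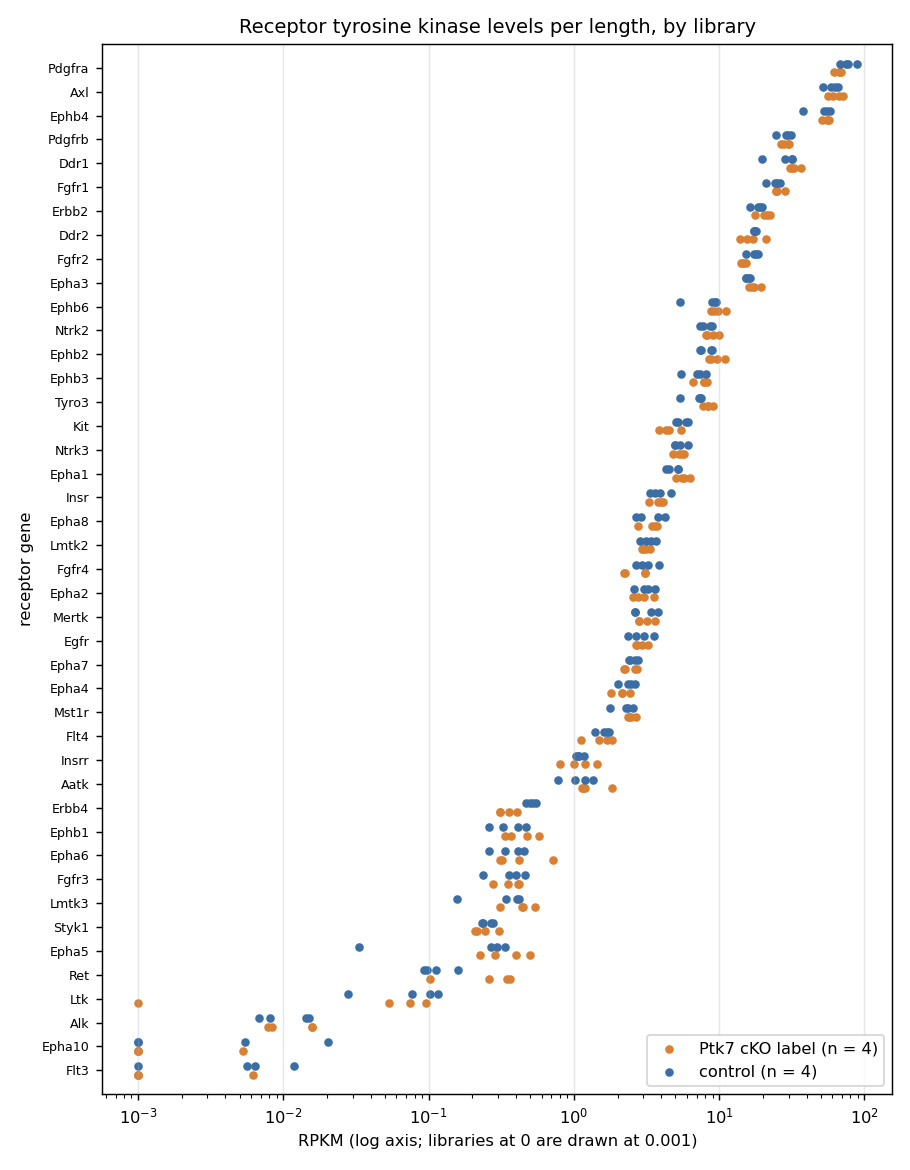
RPKM (horizontal log axis) of the 43 receptor genes, ordered by control mean, in the 4 control libraries (blue) and the 4 libraries of the knockout label (orange). Levels span from Pdgfra, at 68.3 to 88.2 RPKM in the controls, to Flt3, which was at 0 in some libraries and at most 0.0119 RPKM in the controls.

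Setting the knockout label against control asked whether receptor genes differ with the disruption of Ptk7. In edgeR's quasi-likelihood test none of the receptors passed the threshold of 0.05 after adjustment, and 0 of the 16469 genes tested did (0.0%). The smallest edgeR adjusted p among the 39 tested receptors was 0.237, for Erbb4. At an unadjusted p under 0.05 there were 7 receptors, 17.9% of those tested, against 8.37% of all genes. Of these, Tyro3, Epha1 and Ret were higher (3.50% of all genes were higher at this threshold) and Erbb4, Fgfr2, Kit and Pdgfra were lower (4.87% of all genes). DESeq2 called 1 receptor, Erbb4, which was lower, and 184 of the same 16469 genes (1.12%, or 0.771% lower). The groups did not overlap for 2 receptors, Erbb4 and Tyro3, which is 5.13% of those tested against 5.76% of all genes (3.11% lower, as Erbb4, and 2.65% higher, as Tyro3). The count of 7 became 4 without the library labelled Ptk7 cKO 5 (8.74% of all genes in that fit, where edgeR called Ptk7 alone after adjustment, 0.00599% of the 16697 genes tested). It was also 4 without the library labelled Ptk7 cKO 2, a fit for which the share over all genes was not worked out. The median log2 fold change of the 39 receptors was 0.03 (24 above 0 and 15 below), beside 0.01 over all genes, and 34 of the 39 differed by less than 0.3 on the log2 scale. The summed level of the 43 receptors was 2865.6 to 3097.8 CPM in the controls and 2739.9 to 3054.6 CPM in the knockout label, so the groups overlapped.

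**Figure D2:**
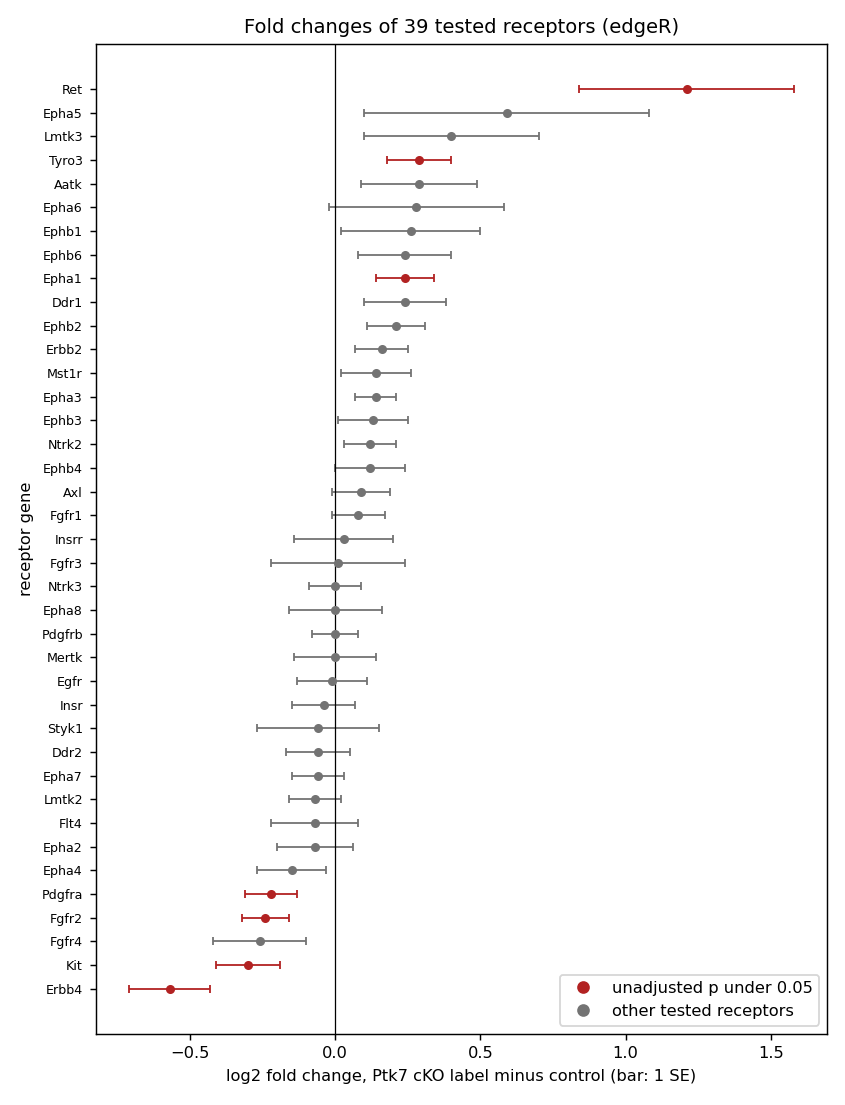
Log2 fold change (knockout label minus control, horizontal axis) of each of the 39 tested receptors with 1 SE from edgeR, where red points have an unadjusted p under 0.05. Estimates run from -0.57 for Erbb4 to 1.21 for Ret, and most of the others lie within 0.3 of 0.

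Erbb4, the neuregulin receptor (ENSMUSG00000062209), had the smallest p of the family. It stood at 5.77, 6.76, 6.19 and 6.51 CPM in controls 1, 3, 4 and 6, and at 4.41, 3.82, 3.82 and 4.99 CPM in the libraries labelled Ptk7 cKO 1, 2, 4 and 5. All 4 libraries of the knockout label, the one with Ptk7 included, lay below every control. The means were 6.31 ± 0.427 and 4.26 ± 0.563 CPM (SD, n = 4 each), a log2 fold change of -0.57 (SE 0.14, edgeR adjusted p = 0.237, DESeq2 adjusted p = 0.0372). The gene is low in the duct, at 0.511 RPKM, and rests on 100 to 203 counts per library. Its ligands did not pass either test: Nrg1 had 2.09 and 1.94 CPM (control and knockout label means), Nrg2 4.65 and 5.16, Btc 2.66 and 2.78, and Hbegf 5.73 and 6.03, while Ereg and Nrg3 were too low to test. Its partners Egfr, the EGF receptor (log2 fold change -0.01, SE 0.12), and Erbb2 (0.16, SE 0.09) lay near 0.

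Fgfr2, the epithelial receptor of Fgf7 and Fgf10, was at 130.8, 124.9, 134.5 and 111.3 CPM in controls 1, 3, 4 and 6. In the libraries labelled Ptk7 cKO 1, 2, 4 and 5 it was at 104.4, 111.4, 106.7 and 102.2 CPM. The groups met at control 6 and Ptk7 cKO 2, and the log2 fold change was -0.24 (SE 0.08, edgeR adjusted p = 0.379). The levels of Fgf7 (3.59 and 4.60 CPM) and Fgf10 (20.8 and 23.7 CPM) did not pass. Fgf10 was at 17.3 to 23.3 CPM in the controls and at 24.1, 27.1, 25.9 and 17.8 CPM in Ptk7 cKO 1, 2, 4 and 5. Its log2 fold change was 0.19, and 0.31 (edgeR adjusted p = 0.475) with the library labelled Ptk7 cKO 5 left out. In the file, the gene model of Fgfr2 reaches far upstream and shares 4.34% of its exon bases with Ctbp2. Of 16 duct epithelium markers, 9 were lower and 1 higher at an unadjusted p under 0.05 (4.87% and 3.50% of all genes). None was called by edgeR and 3 were called lower by DESeq2 (0.771% of all genes). Their summed level was 1189.1 to 1355.8 CPM in the controls and 1011.0 to 1412.9 CPM in the knockout label, led by Epcam. Their part in the Erbb4 and Fgfr2 values was not tested, and in such bulk samples fewer cells of a type and less RNA per cell cannot be told apart.

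Kit, the stem cell factor receptor, stood at 54.7, 52.7, 45.2 and 46.3 CPM in controls 1, 3, 4 and 6. It stood at 40.0, 48.7, 38.2 and 34.1 CPM in the libraries labelled Ptk7 cKO 1, 2, 4 and 5. Only Ptk7 cKO 2 reached the control range. Kit was no longer under the unadjusted threshold when control 1 (log2 fold change -0.26), Ptk7 cKO 4 (-0.28) or Ptk7 cKO 5 (-0.23) was left out. In all 8 libraries its log2 fold change was -0.30 (SE 0.11, edgeR adjusted p = 0.492). Its ligand Kitl was at 58.4 ± 8.22 and 56.3 ± 4.44 CPM (SD, n = 4 each). Mast cells and melanocytes are known to carry Kit. Of their 11 markers 6 were tested, and 2 were higher and 1 lower at an unadjusted p under 0.05 (3.50% and 4.87% of all genes). Their sum was 41.4 to 82.4 CPM in the controls and 69.3 to 100 CPM in the knockout label, with overlap, led by the mast cell chymase Cma1, and Tyr was at 0 in every library.

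Pdgfra was at 767.6, 883.8, 684.9 and 742.5 CPM in controls 1, 3, 4 and 6. It was at 617.3, 676.5, 688.9 and 667.9 CPM in the libraries labelled Ptk7 cKO 1, 2, 4 and 5. The groups overlapped at control 4 and Ptk7 cKO 4, and control 3 was the highest. The log2 fold change was -0.22 (SE 0.09, edgeR adjusted p = 0.531), and without control 3 it was -0.14 (SE 0.07). Pdgfra was no longer under the unadjusted threshold when any 1 of controls 1 and 3 and of Ptk7 cKO 1, 2 and 5 was left out. Pdgfa, a ligand secreted by epithelia that acts on Pdgfra, was lower as well, at 45.9, 47.4, 42.0 and 41.0 CPM in controls against 39.5, 34.1, 28.5 and 37.0 CPM. Its groups did not overlap (log2 fold change -0.34, edgeR adjusted p = 0.364). Pdgfc, another ligand of this receptor, was at 146.1 ± 13.0 and 137.2 ± 7.32 CPM and did not pass. Pdgfb, which binds both PDGF receptors, was at 49.8 ± 10.7 and 47.1 ± 14.3 CPM (log2 fold change -0.08, or -0.31 without the library labelled Ptk7 cKO 5) and did not pass. Pdgfra is itself in the list of mesenchyme markers. Of these 3 were higher and 1 (Pdgfra) lower at an unadjusted p under 0.05 (3.50% and 4.87% of all genes). DESeq2 called 1, which was higher (0.346% of all genes). The list summed to 17001.7 to 21963.4 CPM in the controls and 19064.8 to 24492.8 CPM in the knockout label.

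Tyro3, a TAM receptor for Gas6 and protein S, stood at 46.4, 33.3, 44.7 and 45.4 CPM in controls 1, 3, 4 and 6. It stood at 52.3, 55.8, 47.6 and 51.6 CPM in the libraries labelled Ptk7 cKO 1, 2, 4 and 5. Every library of the knockout label was above every control, with control 3 far below the other controls. The log2 fold change was 0.29 (SE 0.11, edgeR adjusted p = 0.495), and 0.19 (SE 0.07) without control 3. When Ptk7 cKO 2 was left out, Tyro3 was at 0.25 and no longer under the unadjusted threshold. Gas6 was in the same direction without overlap, from 170.0 to 322.1 CPM in the controls and 335.8 to 434.9 CPM in the knockout label (log2 fold change 0.44, edgeR adjusted p = 0.529), and control 3 was again the lowest. Pros1, which encodes protein S, was at 84.4 ± 3.15 and 81.7 ± 7.68 CPM. The other TAM receptors, Axl (log2 fold change 0.09, SE 0.10) and Mertk (0.00, SE 0.14), differed by less than 1 SE.

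Epha1, an epithelial Eph receptor, stood at 20.4, 17.6, 20.4 and 17.0 CPM in controls 1, 3, 4 and 6, and at 21.7, 22.5, 19.8 and 24.9 CPM in the libraries labelled Ptk7 cKO 1, 2, 4 and 5. The groups overlapped through Ptk7 cKO 4, and the highest value was in the library that kept Ptk7. The log2 fold change was 0.24 (SE 0.10, edgeR adjusted p = 0.574). It was 0.18 without the library labelled Ptk7 cKO 5. Epha1 was no longer under the unadjusted threshold when any 1 of controls 3 and 6 and of Ptk7 cKO 1, 2 and 5 was left out. Its exons share 6.01% of their bases with Zyx on the other strand, and the strand setting of the counting is not given in the sources used here. Zyx, at 182.9 ± 12.6 CPM in the controls, had a log2 fold change of 0.13 (SE 0.11). Ephrin-A1, a ligand of this receptor, was at 23.1 ± 1.53 and 22.6 ± 0.593 CPM.

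Ret, the receptor of the GDNF family and a gene of autonomic neurons and of the ureteric bud, had the largest fold difference of the family from a very low level. It had 1.07, 0.633, 0.766 and 0.662 CPM in controls 1, 3, 4 and 6, and 2.34, 2.44, 1.76 and 0.695 CPM in the libraries labelled Ptk7 cKO 1, 2, 4 and 5. The 3 libraries with low Ptk7 were above every control, and the library that kept Ptk7 lay within the control range. With all 8 libraries the log2 fold change was 1.21 (SE 0.37, edgeR adjusted p = 0.364, DESeq2 adjusted p = 0.114). With the library labelled Ptk7 cKO 5 left out it was 1.48 in edgeR (adjusted p = 0.179) and 1.49 in DESeq2 (adjusted p = 0.0027). The counts were 17 to 64 per library, so this value rests on few reads. Of the 39 tested receptors 3 (Erbb4, Tyro3 and Ret) had Ptk7 cKO 1, 2 and 4 outside the control range on the same side, where 11.1% of all tested genes did. Only Ret also had Ptk7 cKO 5 within that range, as did 4.26% of all tested genes. This way of reading the libraries was chosen after their values were seen.

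The partners of Ret overlapped between the groups. Gdnf, its ligand, was at 3.93 ± 0.516 and 3.91 ± 0.867 CPM, and the co-receptor Gfra1 was at 14.3 ± 4.17 and 11.3 ± 4.53 CPM (SD, n = 4 each). Of 11 tested neuron and Schwann cell markers 4 were higher and 0 lower at an unadjusted p under 0.05 (3.50% and 4.87% of all genes). After adjustment none was called by edgeR, and DESeq2 called 1, which was higher (0.346% of all genes). The sum of the markers was 165.9 to 206.0 CPM in the controls and 210.4 to 267.6 CPM in the knockout label, without overlap. Their median log2 fold change was 0.42, with 10 above 0 and 1 below, beside 0.01 over all genes. It was 0.49 without the library labelled Ptk7 cKO 5. Ncam1 had the highest level of that list, with a log2 fold change of 0.07 (SE 0.12). The part of these cells in the Ret values was not tested.

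**Figure D3:**
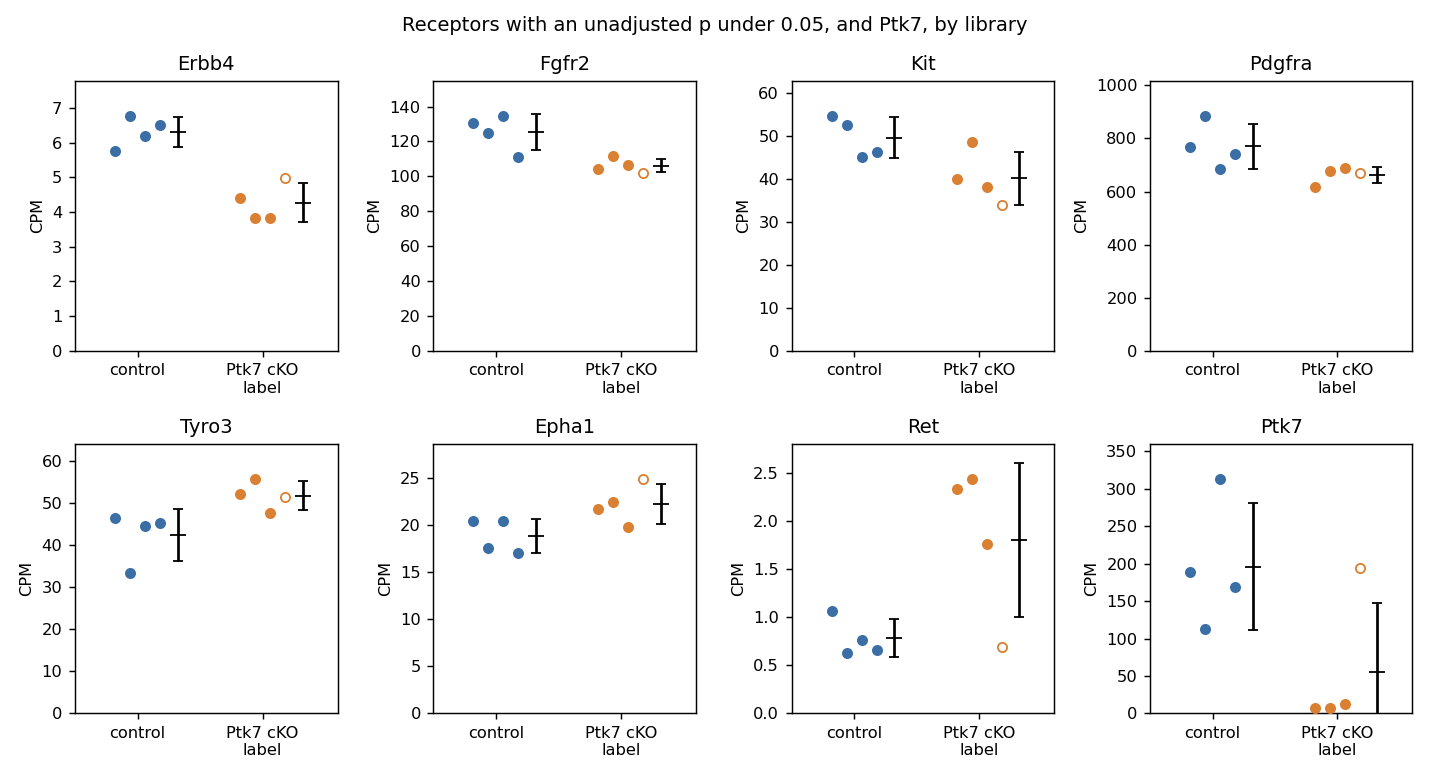
CPM (vertical axes, from 0) of the 7 receptors with an unadjusted p under 0.05 and of Ptk7, with 1 point per library in the order 1, 3, 4, 6 (control, blue) and 1, 2, 4, 5 (knockout label, orange), and the mean and SD in black (the SD bar of Ptk7 is cut at 0). The open point is the library labelled Ptk7 cKO 5, which lies with the controls for Ptk7 (194.3 CPM) and Ret (0.695 CPM) and with its label for Erbb4 (4.99 CPM) and Tyro3 (51.6 CPM).

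**Figure D4:**
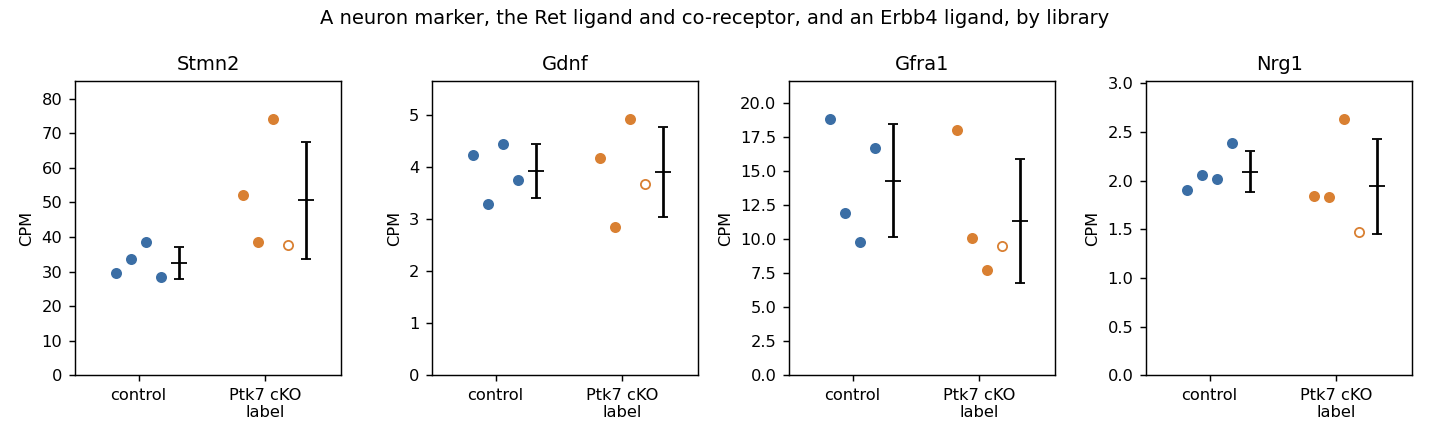
CPM (vertical axes, from 0) by library for the neuron marker Stmn2, for Gdnf and Gfra1, ligand and co-receptor of Ret, and for the Erbb4 ligand Nrg1, drawn as in the plot of the 7 receptors. Stmn2 is highest in Ptk7 cKO 4 (74.0 CPM), and the groups overlap in all 4 panels.

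Promoter sequences are shown for 3 of the 7 receptors, those whose 250 bases before the RefSeq start adjoin or lie close to the gene model and hold no exon of the file. They let the most abundant receptor be set beside Epha1 (4.80 RPKM) and Erbb4 (0.511 RPKM). The sequences are from RefSeq (GRCm38.p6), read 5′ to 3′ on the strand of the gene, and capitals mark CG dinucleotides (CpG sites). The Erbb4 window is chr1:69108060-69108309 (minus strand), the Pdgfra window chr5:75152001-75152250 (plus strand) and the Epha1 window chr6:42373269-42373518 (minus strand).
Erbb4: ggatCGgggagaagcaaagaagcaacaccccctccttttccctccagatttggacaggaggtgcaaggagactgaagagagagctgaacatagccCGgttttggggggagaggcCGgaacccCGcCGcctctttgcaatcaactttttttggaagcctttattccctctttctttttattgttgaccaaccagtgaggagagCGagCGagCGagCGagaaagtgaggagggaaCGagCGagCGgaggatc
Pdgfra: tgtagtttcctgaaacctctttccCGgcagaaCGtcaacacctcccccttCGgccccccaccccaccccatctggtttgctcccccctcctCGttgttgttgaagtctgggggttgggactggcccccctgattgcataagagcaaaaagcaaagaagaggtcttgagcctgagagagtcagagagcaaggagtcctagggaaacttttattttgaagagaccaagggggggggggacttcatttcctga
Epha1: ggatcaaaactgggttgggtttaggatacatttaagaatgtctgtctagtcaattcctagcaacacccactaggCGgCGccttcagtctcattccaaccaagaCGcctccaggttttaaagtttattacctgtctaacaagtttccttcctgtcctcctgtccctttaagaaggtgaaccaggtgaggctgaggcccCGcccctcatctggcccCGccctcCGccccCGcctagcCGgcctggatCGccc
They held 12, 4 and 9 CpG sites, where the median was 6 over the 32851 promoters of the table and 14 over the 36 receptors found in it. Pdgfra, with the highest RNA level of the family, had the fewest of those printed. Of the receptors not printed here, Fgfr2 had 2, Kit 17 and Tyro3 24 CpG sites. A relation of CpG sites to RNA level was not tested. The GC box GGGCGG, bound by SP1 and searched on both strands, occurred 3 times in Epha1 and was not found in the Erbb4 and Pdgfra windows. Each GC box holds a CpG site, so these measures are not separate. The motif was in 23 of the 36 receptor promoters, in 58.6% of the promoters of tested genes and in 32.7% of the whole table. The TCF/LEF motif CTTTGA, searched on both strands, was in none of the 3 windows, in 4 of the 36 and in 10.9% of the promoters of tested genes (13.8% of the table). A match is a description of letters and not a binding site.

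None of the other abundant receptors passed the test, adjusted or not. Axl had 317.1, 259.8, 298.1 and 328.3 CPM in controls 1, 3, 4 and 6, and 280.5, 304.4, 338.4 and 355.4 CPM in the libraries labelled Ptk7 cKO 1, 2, 4 and 5. Ephb4 had 266.8, 173.8, 244.8 and 254.8 CPM in the controls and 237.8, 261.8, 265.1 and 257.0 CPM in the knockout label. In Ephb4 control 3 alone lay low, and the log2 fold change was 0.12 (SE 0.12) with it and 0.00 (SE 0.07) without it. Ddr1, the collagen receptor of epithelia, showed the same low control 3, with 151.5, 94.1, 152.3 and 136.1 CPM in the controls and 152.2, 173.4, 156.7 and 147.4 CPM in the knockout label. Its log2 fold change was 0.24 (SE 0.14), and 0.10 (SE 0.08) without control 3.

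Ddr2, the collagen receptor of mesenchyme, was even across the controls (162.0, 161.3, 165.5 and 164.3 CPM) and more spread in the knockout label (129.5, 144.1, 195.8 and 158.4 CPM). The control values fell inside the range of the knockout label, and the log2 fold change was -0.06 (SE 0.11). Pdgfrb had 163.1, 169.7, 135.2 and 157.6 CPM in the controls and 146.0, 153.7, 164.9 and 162.9 CPM in the knockout label, a log2 fold change of 0.00 (SE 0.08). Fgfr1, the mesenchymal FGF receptor, had 214.2, 171.1, 201.6 and 198.2 CPM in the controls and 199.6, 202.4, 200.4 and 229.9 CPM in the knockout label (0.08, SE 0.09). Erbb2, the ErbB partner receptor, had 100.2, 84.3, 102.2 and 96.0 CPM in the controls and 91.6, 111.9, 106.0 and 117.3 CPM in the knockout label (0.16, SE 0.09). In all of these genes the groups overlapped. For Fgfr1 and Erbb2 the highest value was that of the library labelled Ptk7 cKO 5.

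The remaining 25 tested receptors overlapped between the groups in every case, with log2 fold changes from -0.26 (Fgfr4) to 0.59 (Epha5) and no unadjusted p under 0.05. Eph receptors formed the largest family, with 14 members. The EphB receptors had estimates above 0 in all 5: Ephb1 (0.26), Ephb2 (0.21), Ephb3 (0.13), Ephb4 (0.12) and the kinase-inactive Ephb6 (0.24), none of which passed. Control 3 was the lowest control for Ephb3, Ephb4 and Ephb6, but not for Ephb1 and Ephb2. The 5 summed to 326.1 CPM in control 3 and to 465.2, 438.6 and 430.8 CPM in controls 1, 4 and 6. In the knockout label their sum was 427.1 to 484.2 CPM. Ephb2 was nearest to the threshold, at 92.4 to 112.0 CPM in the controls and 106.7 to 137.2 CPM in the knockout label, with overlap. In the EphA family 5 of 8 tested members were above 0, among them Epha8 at 0.00 after rounding. Epha3, the most abundant of them, had 89.4 ± 3.07 and 98.5 ± 8.10 CPM (SD, n = 4 each). Epha2, Epha4, Epha7 and Epha8 lay between -0.15 and 0.00 on the log2 scale. Epha5 varied most within the controls, with 0.553 CPM in control 1 and 4.52 to 5.59 CPM in the others, against 3.76 to 8.40 CPM in the knockout label.

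Among receptors known from nerves, Ntrk2, the BDNF receptor, was well expressed at 101.9 to 137.4 CPM over the 8 libraries, and Ntrk3, the receptor of neurotrophin 3, was at 25.9 to 32.7 CPM. Their log2 fold changes were 0.12 (SE 0.09) and 0.00 (SE 0.09), and neither passed the test. Insr, the insulin receptor, was at 31.5 to 45.1 CPM and its relative Insrr, a pH sensor, at 4.62 to 8.28 CPM. Flt4, the lymphatic VEGF receptor, was at 9.16 to 15.0 CPM. The epithelial receptor Mst1r was at 8.89 to 13.3 CPM while its ligand Mst1 was too low to test. The log2 fold changes of Insr, Insrr, Flt4 and Mst1r were -0.04, 0.03, -0.07 and 0.14. Fgfr3 (1.70 to 3.32 CPM) and Fgfr4 (7.81 to 13.6 CPM) were far below Fgfr1 and Fgfr2, also per length (0.364 and 3.17 against 24.2 and 17.3 RPKM), and 13.9% of the exon bases of Fgfr3 are shared with a gene on the other strand. Of the LMTK kinases, Lmtk2 was at 23.1 to 29.7 CPM, Aatk at 5.59 to 13.0 and Lmtk3 at 0.899 to 3.09. Styk1 was at 1.22 to 1.79 CPM.

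The pathway around the receptors was read from 3 lists. Of 59 ligands and co-receptors 48 were tested, and 7 were higher and 1 lower at an unadjusted p under 0.05 (3.50% and 4.87% of all genes). None passed in edgeR after adjustment, and the median log2 fold change was 0.15 beside 0.01 over all genes. DESeq2 called 1 member, Efna2, which encodes ephrin-A2 and was higher (0.346% of all genes). It had 35.3, 32.8, 35.5 and 34.0 CPM in controls 1, 3, 4 and 6 and 44.9, 43.4, 44.6 and 42.0 CPM in the libraries labelled Ptk7 cKO 1, 2, 4 and 5, without overlap (log2 fold change 0.35, edgeR adjusted p = 0.161, DESeq2 adjusted p = 0.00202). The next smallest p values were those of Fgf18 (8.11 ± 0.894 and 11.5 ± 1.66 CPM, edgeR adjusted p = 0.295) and of Pdgfa, given above. Alk and Ltk were too low to test, while Ptn and Mdk, growth factors linked to Alk among other receptors, were at 617.4 ± 108 and 589.5 ± 134 CPM in the controls and 790.2 ± 25.6 and 798.0 ± 81.6 CPM in the knockout label (edgeR adjusted p = 0.386 and 0.480). Control 3 was the lowest library for both.

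Of 37 adaptors and signal relays 36 were tested, with a median log2 fold change of 0.03. At an unadjusted p under 0.05, 0 were higher and 1 lower (3.50% and 4.87% of all genes). The lower one was Gab1, a docking protein of several receptors, at 118.9 ± 12.0 and 99.7 ± 4.81 CPM (edgeR adjusted p = 0.389), without overlap. It was the 1 lower member without overlap, and 5 were higher without overlap: Grb2, Shc2, Akt1, Akt2 and Src (3.11% and 2.65% of all genes). Control 3 was the lowest library for each of these 5. Shc2 (0.34) and Fyn (0.20), an adaptor and a kinase of the Src family, had the next smallest p values and did not reach that threshold. Of 31 feedback and turnover genes 30 were tested, with a median of -0.01. Of these, 2 were higher and 3 lower at an unadjusted p under 0.05 (3.50% and 4.87% of all genes). Dusp6, an ERK phosphatase induced by FGF signalling, was at 35.0 ± 2.44 and 42.0 ± 2.34 CPM (edgeR adjusted p = 0.358). Grb14, an inhibitor of the insulin receptor, was at 27.8 ± 0.719 and 23.1 ± 2.31 CPM (edgeR adjusted p = 0.386), and the transcription factor Etv1 at 20.7 ± 2.96 and 15.8 ± 2.33 CPM (edgeR adjusted p = 0.432). All 3 differed without overlap between the groups, but they were named for their small p values. Of the 30 tested genes of this list, 2 were higher and 2 lower without overlap (2.65% and 3.11% of all genes). None of the genes in the lists of adaptors and of feedback was called by edgeR or DESeq2.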

How the data were processed

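Total RNA of E18.5 epididymal ducts was sequenced on Illumina TruSeq libraries, 4 control and 4 labelled Ptk7 cKO. The authors deposited raw counts per gene for each library, made with STAR and featureCounts on GRCm38 per the submitters' processing notes, with the exon length of each gene as another value of the file. The strand setting, tool versions or annotation release was not given in the sources used here. All 46517 genes entered the join, and 46005 had a symbol. Of the positions of all 46517 genes, 38860 equal those of GENCODE M21.

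Counts were tested with edgeR 4.0.16 in R 4.3.3 (TMM, filterByExpr, quasi-likelihood F test on group, all 8 libraries, Benjamini-Hochberg over 16469 genes). The SE is the log2 fold change divided by the square root of F. The biological coefficient of variation was 15.2%. In each of the 28 library pairs the counts differed beyond sampling noise (13.7 to 81.7 for chi-square over its degrees of freedom). The code was tested on simulated counts.

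The members and the gene lists were chosen with earlier results of these data known. Values in every library are given for the 8 receptors with the highest control RPKM, those with an unadjusted p under 0.05 and those called by DESeq2. From each pathway list the 3 genes with the smallest p and those called were named. Ligands and co-receptors other than these, Stmn2 and Zyx were named after their values were seen. Alternatives were DESeq2 1.42.0, its size factors, upper-quartile factors, other filters, voom in limma 3.58.1, a replicate block and leaving out each library, with DESeq2 without Ptk7 cKO 5 added after seeing the data. Of the list genes 244 of 248 were found. The 2 shared numbers of the titles (1 and 4) were not taken to pair libraries.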

Additional observations from a re-analysis of the deposited data

Results flagged for a closer look

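In 4 receptors a library lay far from the other 3 of its group, with a gap to its nearest neighbour, as a share of the group's range, above Dixon's critical value for 4 samples. Both groups of each of the 39 tested receptors were searched, and chance alone gives such a gap in about 1 in 20 groups. Fgfr1 was at 229.9 CPM in the library labelled Ptk7 cKO 5. Tyro3 was at 33.3 CPM and Ephb6 at 20.4 CPM in control 3. Aatk was at 13.0 CPM in the library labelled Ptk7 cKO 4, where the next of the group was at 8.58 CPM.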

How the results depend on the processing

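The number of genes called over the whole table was 0 in edgeR, 184 in DESeq2, 1 with no filter on low counts, 7 under the replicate block and 177 in DESeq2 with Ptk7 cKO 5 left out (an alternative chosen after seeing the data), and it ranged from 0 to 2 when single libraries were left out. The replicate block used the 4 libraries whose numbers occur in both groups (1 and 4). The deviations of same-numbered libraries correlated at -0.092 and 0.023, so the numbers were not taken to pair samples. Leaving out single libraries moved the number of receptors at an unadjusted p under 0.05 between 4 and 8. Of these fits, the share over all genes was worked out only without Ptk7 cKO 5 (8.74%). The median log2 fold change of the receptors moved between 0.00 and 0.13 (0.13 without control 1). Erbb4 was called in DESeq2 (adjusted p = 0.0372, or 0.0213 with Ptk7 cKO 5 left out). Its adjusted p ranged from 0.0213 to 0.513 over 16 alternatives, and its log2 fold change from -0.65 to -0.52. Under the block, Ephb4 (-0.02), Fgfr1 (-0.05) and Erbb2 (-0.04) changed sign. Pdgfrb, at 0.00, became -0.06 with control 4 left out, -0.02 with Ptk7 cKO 4 left out and -0.01 with Ptk7 cKO 5 left out (also in DESeq2), and its highest such value was 0.05. Ddr2 ranged from -0.18 to 0.02 with single libraries left out, and was 0.02 when this was Ptk7 cKO 1. The causes were not tested. Erbb4, Fgfr2, Kit, Pdgfra, Tyro3, Epha1 and Ret had the same sign under all 16 alternatives, but under the block Epha1 was 0.02 (0.24 with all libraries), Tyro3 0.13 (0.29) and Ddr1 0.02 (0.24). With single libraries left out, of these 7 only Erbb4, Fgfr2 and Ret stayed under the unadjusted threshold throughout. No alternative tested depth.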
